A study of Mus musculus with 8 samples.

Results

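The cytochrome P450 genes of mouse tumors grown from FC1242 cells were described here. A gene counted as a member when its symbol had the form of the P450 nomenclature (Cyp, a family number, a subfamily letter and a gene number) and when it had at least 10 reads summed over the 6 bulk RNA-seq libraries, and 79 of the 52459 genes listed met this. Of 120 symbols that began with Cyp and a digit, 94 had this form and 15 of those stayed under 10 reads, 9 of them with 0 reads. The 26 symbols of another form were not members and included Cyp51, Cyp4a12a, Cyp4a12b, Cyp3a41a, Cyp3a41b and the pseudogenes.

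FC1242 is a pancreatic cancer line of the KPC type, and 100000 of its cells were injected into C57BL/6 mice, into the pancreas for a primary tumor or so that a tumor formed in the liver. All tumors were taken at 3 weeks. Bulk RNA-seq was made of 3 primary tumors and 3 liver tumors, and 1 droplet single-cell library a site was made of sorted CD45+ leukocytes. By their labels all groups share the line, the strain, the dose of cells and the time. No tumor-free pancreas or liver is among the samples. The labels do not give the sex of the mice or say that replicate numbers pair mice, and do not say whether 1 tumor or several gave a library, so p-values measure the spread between these libraries only.

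P450 enzymes are heme proteins that insert an oxygen atom into a substrate, taking electrons from cytochrome P450 oxidoreductase in the endoplasmic reticulum or from ferredoxin in mitochondria. Families 1 to 3 act mainly on drugs, toxins and steroids and are among the most abundant messages of hepatocytes. Other families make bile acids from cholesterol, hydroxylate fatty acids and eicosanoids, build steroid hormones in the adrenal gland and gonads, or activate and break down vitamin D and retinoic acid.

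Totals ran from 27481390 to 36743247 reads a bulk library. The 20 hepatocyte marker genes took 6.27 to 9.86% of reads in the liver libraries and 0.0430 to 0.206% in the primary libraries, and whether host liver or tumor cells gave these reads was not tested. In bulk tissue, fewer cells of a type and less RNA per cell cannot be told apart. The sum of 8 pancreatic acinar markers was 47.8 CPM (reads scaled to a common TMM-adjusted library total) in primary 2 and at most 1.25 in each of the other 5 libraries, so markers of normal pancreas were near 0 in primary 1 and primary 3. The tumor markers Krt18 and Krt19 were at 1192 to 2947 and 719 to 2073 CPM in the primary libraries, and Epcam, another epithelial marker, was at 0.381 to 5.46 CPM in all 6. The X-inactivation transcript Xist had 0 to 14 reads in each bulk library, beside 1118 to 3672 reads of the Y-linked gene Ddx3y. In the single-cell libraries, which carry the same line on their labels, Xist stood at 899 CPM in epithelial tumor cell-like cells of the primary library and 515 CPM in those of the liver library, and Ddx3y at 3.02 and 1.94 CPM. Most of the Ddx3y UMIs of the primary library lay in macrophage-like cells, so the bulk Ddx3y reads do not show which cells hold them. Xist is thus near 0 in bulk tissue and high in the epithelial tumor cell-like cells, and no fold or test is taken between the 2 kinds of library.

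The family took 0.0869, 0.105 and 0.0458% of all reads in primary 1, 2 and 3, and 1.58, 1.64 and 1.02% in liver 1, 2 and 3. Every liver library was above every primary library. The means were 0.0794 ± 0.0305% and 1.41 ± 0.348% (SD, n = 3 each, exact two-sided permutation p = 0.1, the smallest that 3 against 3 libraries allow). The members were chosen with earlier results of these data known, so this p describes the order of the libraries and is no independent test. Of the 79 members, 63 passed the filter on low counts and were tested with edgeR among 16487 genes. At an adjusted p under 0.05, 51 members were higher in the liver tumors, 3 were lower and 9 were not called, whereas 16.7% of all genes tested were called higher, 6.26% lower and 23.0% either way. With plain library totals in place of TMM factors, 2110 of all genes tested were higher and 4646 lower, against 2755 and 1032 with TMM, and the members split 50 to 7. A member that passed the filter only through its liver reads had to differ, so these counts describe the family and do not test it. The median log2 change of the tested members was 7.97, or 6.32 with members at 0 reads in every primary library set to a lower bound, beside -0.07 for all genes tested.

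**Figure D1:**
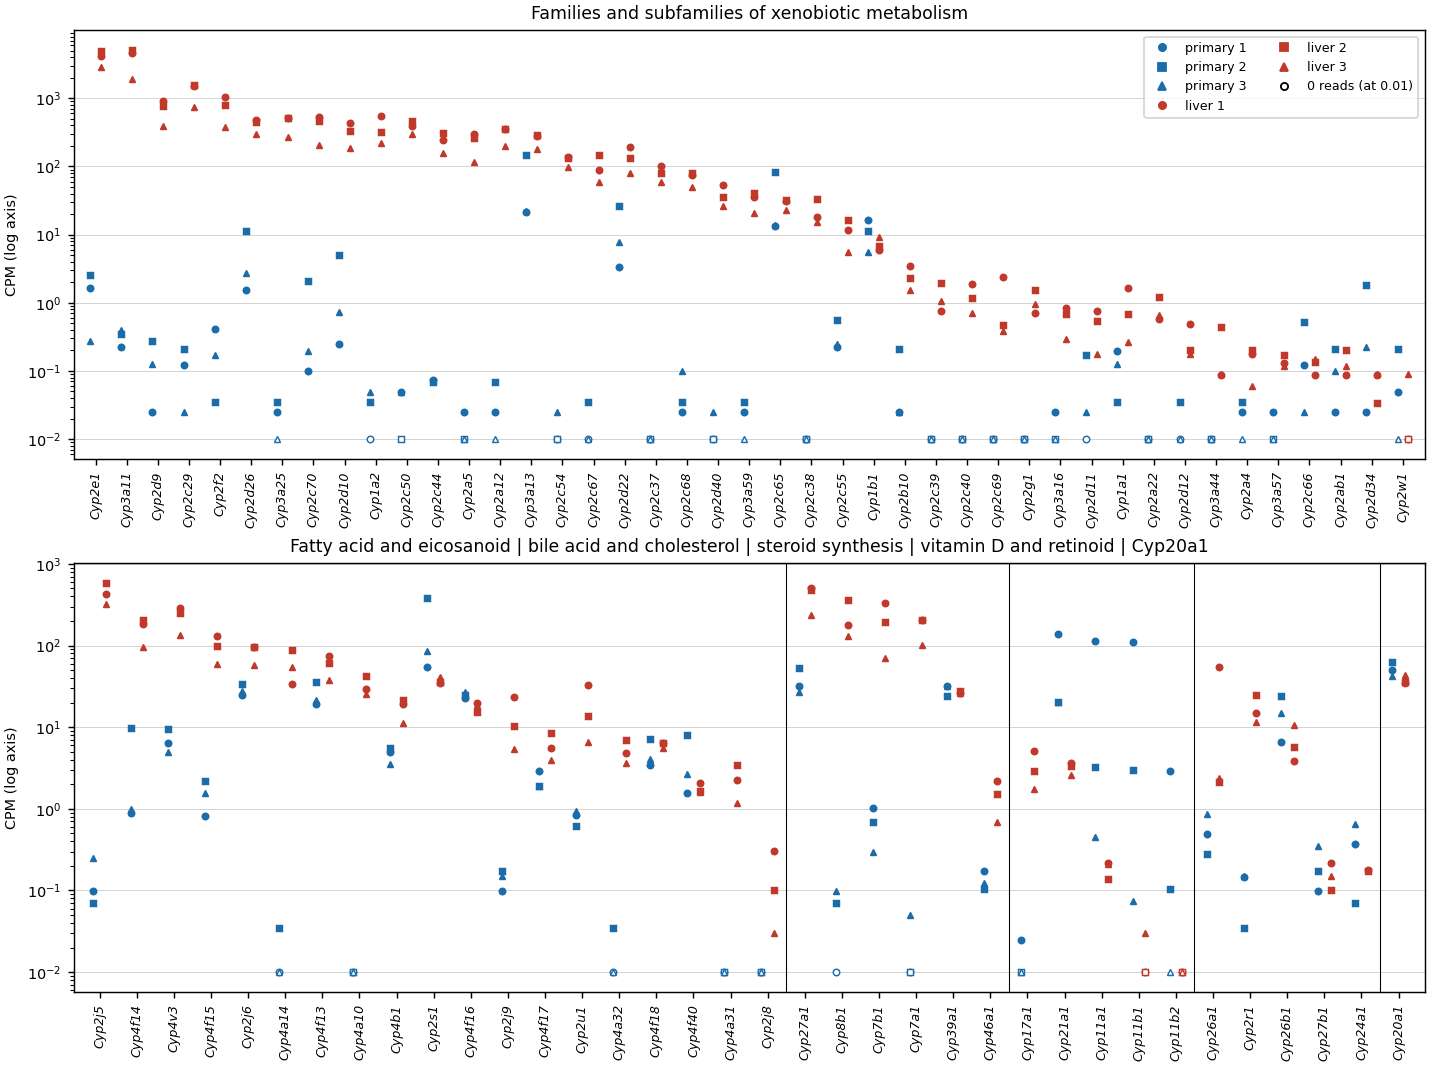
CPM of each of the 79 members in each bulk library on a log axis, with the members of xenobiotic metabolism above and the other roles below, ordered within a role by mean liver FPKM; 0 reads are drawn as open symbols at 0.01. The most abundant liver members lie several orders of magnitude above the primary tumors. Cyp2s1, 4 steroid-synthesis members and others, among them Cyp2c65, Cyp1b1, Cyp20a1, Cyp26b1 and Cyp39a1, have their highest value in a primary library.

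Over all 79 members, tested or not, 60 had every liver library above every primary library, 5 the opposite order and 14 overlapped. Of all genes tested, a set that leaves out genes of low counts, 23.8% and 20.2% were separated in these directions. The 5 with every primary library above every liver library were Cyp11a1, Cyp11b1, Cyp21a1, Cyp2s1 and Cyp4f16. In the primary libraries 11 members had 0 reads, and 2 of these, Cyp2j8 and Cyp3a44, were too low in liver to be tested. Cyp2c37 had 6640 reads over the liver libraries and 0 in the primary ones, which makes it at least 2837-fold higher when 3 reads are set over the primary group. The bounds of the other 10 ran from 4.70-fold for Cyp2j8 to 1179-fold for Cyp4a10.

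The 43 members of the drug- and toxin-metabolizing subfamilies gave 86.0, 86.0 and 85.4% of the P450 reads of liver 1, 2 and 3. Of these members 32 were tested, of which 29 were higher in the liver tumors and 3 were not called (Cyp1b1, Cyp2c65 and Cyp3a13). Per length, Cyp2e1, the ethanol- and paracetamol-oxidizing enzyme of pericentral hepatocytes, led the liver libraries with a mean of 1864 FPKM (the authors' deposited values, scaled to transcript length and depth). Cyp3a11, a main drug-oxidizing enzyme of mouse liver, followed at 773 FPKM, then Cyp2d9 at 422, Cyp2c29 at 417 and Cyp2f2 at 367.

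Cyp2e1 (chr7:140763739-140774987, plus strand, GRCm38) stood at 1.65, 2.53 and 0.274 CPM in primary 1, 2 and 3 and at 4162, 4967 and 2855 CPM in liver 1, 2 and 3. The groups did not overlap and liver 3 was the lowest of its group, with a log2 change of 11.41 (SE 0.93, edgeR adjusted p = 7.37e-05). Cyp3a11 (chr5:145854426-145879964, minus strand) stood at 0.221, 0.346 and 0.398 CPM in the primary and 4631, 5156 and 1911 CPM in the liver libraries. Liver 3 was again lowest, and the log2 change was 13.55 (SE 0.69, edgeR adjusted p = 5.72e-06). Cyp2d9, whose message is known to be higher in male than in female mouse liver, was at 0.0246, 0.277 and 0.124 CPM in the primary and 924, 761 and 391 CPM in the liver tumors. Its log2 change was 12.32 (SE 0.73). Cyp2c29 was at 0.123, 0.208 and 0.0249 CPM in the primary and 1506, 1548 and 751 CPM in the liver tumors, with a log2 change of 13.43 (SE 0.70).

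By subfamily, 13 of 14 tested Cyp2c members, all 5 tested Cyp2d members, all 3 tested Cyp2a members and 3 of 4 tested Cyp3a members were higher in the liver tumors. Cyp1a2, which metabolizes caffeine and aromatic amines, rose by a log2 change of 13.49. The related Cyp1a1 reached only 0.268 to 1.63 CPM in liver and was not tested. Cyp2b10, the classic target of the nuclear receptor CAR (Nr1i3), stood at 1.55 to 3.52 CPM in the liver libraries and rose by a log2 change of 4.93. Of 9 P450 genes known as female-biased in mouse liver, only Cyp2c40 and Cyp2c69 were high enough to be tested and both rose, and the sum of the 9 was 1.67 to 5.37 CPM in the liver libraries. The 4 male-biased genes, which include Cyp7b1 and the non-members Cyp4a12a and Cyp4a12b, summed to 559 to 1493 CPM there and all 4 rose. Many of these paralogs are close in sequence: of 78 members with an annotated transcript, 23 shared over 20% of their 50-base words with another gene, led by Cyp2c40 with 72.1%. The counting of such reads is not given in the sources used here, so the values of Cyp2c40, Cyp2c69 (54.8%), Cyp2c67 (52.8%), Cyp4a32 (46.8%) and Cyp2a5 (40.8%, mostly with Cyp2a4) are uncertain.

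**Figure D2:**
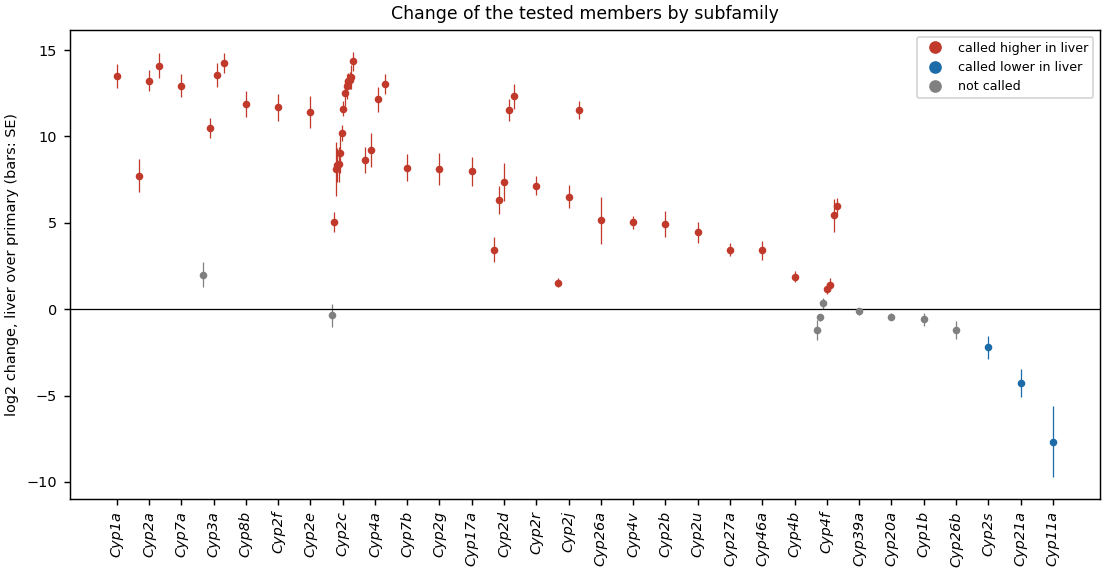
Log2 change of the 63 tested members (liver over primary, edgeR, bars 1 SE worked back from the F statistic), grouped by subfamily and ordered by the subfamily median. Red is higher, blue lower and grey not called. For members at 0 reads in every primary library the data give only a lower bound of the change, whatever the bar. The subfamilies of drug metabolism lie mostly between 5 and 15 on this scale. Cyp2s1, Cyp21a1 and Cyp11a1, which were called lower, lie furthest below 0, and some members that were not called also lie below 0.

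The promoters of the members were searched for short sequence motifs, whether or not the gene rose. RefSeq promoters (250 bases before to 50 after the start, GRCm38.p6) were matched for 60 members, among 32851 promoters in all. The letters CAAAGTCCA, a core of the site of the hepatocyte nuclear receptor HNF4A, were searched on both strands and stood in 9 of the 60 member promoters (15%) and in 0.475% of all promoters, and no match overlapped one of another motif searched. The windows of 41 bases around it are shown 5′ to 3′ on the strand of the gene with the match in capitals:
Cyp2c40, chr19:39812835-39812875 (-): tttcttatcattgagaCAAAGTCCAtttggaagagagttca
Cyp2c65, chr19:39060874-39060914 (+): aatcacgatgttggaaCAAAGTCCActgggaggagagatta
Cyp2c67, chr19:39649143-39649183 (-): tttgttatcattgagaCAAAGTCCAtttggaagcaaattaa
Cyp2c68, chr19:39741154-39741194 (-): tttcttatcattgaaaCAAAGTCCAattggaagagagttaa
Cyp2c69, chr19:39886820-39886860 (-): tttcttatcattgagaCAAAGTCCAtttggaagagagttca
Cyp2c70, chr19:40187326-40187366 (-): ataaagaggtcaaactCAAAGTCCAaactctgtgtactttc
Cyp3a11, chr5:145879939-145879979 (-): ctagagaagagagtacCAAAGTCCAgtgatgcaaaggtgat
Cyp3a16, chr5:145469798-145469838 (-): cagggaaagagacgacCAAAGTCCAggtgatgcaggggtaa
Cyp8b1, chr9:121916348-121916388 (-): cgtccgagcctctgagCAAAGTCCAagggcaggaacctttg
Of these 9 genes, Cyp3a11, Cyp8b1 and the Cyp2c members other than Cyp2c65 rose, Cyp2c65 was not called and Cyp3a16 was too low to test. The Cyp2c40 and Cyp2c69 windows were identical, and those of Cyp2c68 and Cyp2c67 differed from them at 3 and 5 of 41 bases, so these 4 are near-identical and not independent matches. The Cyp2c65 window differed from that of Cyp2c40 at 15 bases. Windows were compared with that of Cyp2c40 only, so likeness among the others, such as Cyp3a11 and Cyp3a16, was not measured. The letters GCGTG, a core of the aryl hydrocarbon receptor site, were in 13 member promoters (21.7%) and in 32.4% of all promoters. AAGGTCA, a site of NR5A1 and related receptors, was in 6 (Cyp2c29, Cyp2c39, Cyp2f2, Cyp3a25, Cyp3a57 and Cyp3a59, 10.0%) and in 4.72% of all promoters.

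Cyp3a13, a Cyp3a member known from the intestine as well as the liver, was already seen in the primary tumors. It stood at 21.2, 145 and 22.1 CPM in primary 1, 2 and 3 and at 275, 292 and 183 CPM in the liver libraries. All liver libraries were above all primary ones, primary 2 was the nearest, and the log2 change of 1.995 (SE 0.73) was not called (edgeR adjusted p = 0.0857). Without primary 2 it was 3.53 (edgeR adjusted p = 5.23e-05), and DESeq2, limma-voom, the FPKM fits and the replicate block also called it. Cyp2c65, another member with high intestinal expression, was at 13.3, 84.0 and 13.9 CPM in the primary and 31.1, 32.1 and 23.3 CPM in the liver tumors. Primary 2 lay above all liver libraries and the other primary tumors below them, so the groups overlapped (log2 change -0.36, SE 0.67, edgeR adjusted p = 0.732). Without primary 2 the log2 change was 1.09 (edgeR adjusted p = 0.00648), and its sign turned positive in limma-voom (0.26), the FPKM fits (0.17 and 0.21) and the replicate block (0.22). Cyp1b1, which oxidizes polycyclic hydrocarbons and estrogens, was at 16.3, 11.4 and 5.57 CPM in the primary and 6.03, 6.86 and 9.20 CPM in the liver tumors, and the groups overlapped.

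Of the 19 members that act on fatty acids and eicosanoids, 18 were tested, 14 rose, Cyp2s1 fell and Cyp4f16, Cyp4f18 and Cyp4f40 were not called. Cyp2j5, an arachidonic acid epoxygenase, was at 0.0984, 0.0693 and 0.249 CPM in the primary and 425, 588 and 320 CPM in the liver tumors. The groups did not overlap (log2 change 11.55, SE 0.53, edgeR adjusted p = 3.82e-06). All 4 members of the Cyp4a subfamily, the fatty acid omega-hydroxylases that the receptor PPARα is known to induce, rose. Cyp4a10 had 0 reads in the primary tumors and 29.0, 42.5 and 25.5 CPM in liver 1, 2 and 3, and Cyp4a14 had 34.1, 87.3 and 55.1 CPM there. Of 7 Cyp4f members 4 rose, from a log2 change of 1.20 for Cyp4f13 to 5.99 for Cyp4f15, and Cyp4f13 lost its call without primary 1, primary 3, liver 1 or liver 2. Cyp4f14 stood at 0.885, 9.67 and 0.995 CPM in the primary and 183, 208 and 94.9 CPM in the liver tumors, with primary 2 the highest of its group (log2 change 5.42, SE 0.98, edgeR adjusted p = 0.00573, not called without a filter on low counts). Cyp4v3, a fatty acid hydroxylase seen in many tissues, was at 6.44, 9.53 and 4.999 CPM in the primary and 290, 252 and 136 CPM in the liver tumors (log2 change 5.02, SE 0.40).

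Cyp2s1, which oxidizes retinoids and eicosanoids and is expressed in epithelia, was at 10.9, 76.7 and 16.8 FPKM in primary 1, 2 and 3, the highest member in primary 2 alone. It stood at 54.1, 379 and 85.1 CPM in primary 1, 2 and 3 and at 35.1, 35.6 and 40.8 CPM in liver 1, 2 and 3. Every primary library was above every liver library and primary 2 stood apart, and the log2 change was -2.22 (SE 0.66, edgeR adjusted p = 0.0459). Without primary 2 the change was -0.90 (edgeR adjusted p = 0.0163). The call was lost when any liver library was left out (adjusted p = 0.136, 0.163 and 0.102 without liver 1, 2 and 3), in limma-voom (0.0852), without a filter (0.206) and with the replicate block (0.0935). The 8 epithelial tumor cell markers summed to 3480, 9193 and 4331 CPM in the primary and 2483 to 2703 CPM in the liver tumors, the same order of primary libraries, and their part in the Cyp2s1 values was not tested.

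Primary 2 stood apart for other members too. In 6 members the value in primary 2 was at least 5 times that of each other primary library with at least 10 reads (Cyp2c65, Cyp2c70, Cyp2d10, Cyp2d34, Cyp3a13 and Cyp4f14). These were 7.59% of members, against 1.08% of all genes tested and 0.477% of all genes listed. Of 68 members with a read in a primary library, 37 were highest in primary 2, 17 in primary 3 and 14 in primary 1. This count was not taken over all genes, so it is not read as a trait of the members. The hepatocyte markers summed to 342, 1963 and 442 CPM in primary 1, 2 and 3, the enterocyte markers to 34.9, 137 and 46.2 CPM, and the acinar protease Ctrb1 had 11, 532 and 2 reads. Albumin, the defining hepatocyte gene, was at 4.67, 16.7 and 8.16 CPM in the primary libraries, and a large part of the hepatocyte sum of primary 2 was Glul at 1385 CPM. The part of these cell types in the P450 values of primary 2 was not tested.

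Of the 6 members of bile acid and cholesterol metabolism, 5 rose and Cyp39a1 was not called. Cyp7a1, the rate-limiting enzyme of the classic bile acid pathway, had 0, 0 and 0.0497 CPM in the primary and 208, 206 and 101 CPM in the liver tumors (log2 change 12.93, SE 0.66). Cyp8b1, which directs synthesis to cholic acid, had 0, 0.0693 and 0.0995 CPM in the primary and 180, 357 and 132 CPM in the liver tumors (log2 change 11.89, SE 0.74). The liver libraries were far above the primary ones for both genes. Cyp27a1, the mitochondrial enzyme of the alternative pathway, was already at 31.8, 53.4 and 26.8 CPM in the primary tumors and rose to 513, 475 and 235 CPM in liver 1, 2 and 3 (log2 change 3.45, SE 0.40, edgeR adjusted p = 0.000544). Cyp7b1, its partner in that pathway, was at 1.03, 0.693 and 0.298 CPM in the primary and 330, 197 and 70.2 CPM in the liver tumors (log2 change 8.197, SE 0.76). Cyp39a1, a hydroxylase of oxysterols, was at 31.6, 23.9 and 32.3 CPM in the primary and 26.3, 28.0 and 25.9 CPM in the liver tumors, and the groups overlapped. Cyp46a1, known for the removal of cholesterol from neurons, stayed at or under 2.20 CPM and rose by a log2 change of 3.40.

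The 5 steroid-synthesis members divided between the sites and, within the primary tumors, fell on 1 library. Cyp11a1, which cleaves the cholesterol side chain to give pregnenolone (ENSMUSG00000032323.13, chr9:58006411-58027023, plus strand), was at 113, 3.26 and 0.448 CPM in primary 1, 2 and 3 and at 0.220, 0.137 and 0.208 CPM in liver 1, 2 and 3. Cyp11b1, which makes corticosterone (ENSMUSG00000075604.5, chr15:74834125-74841643, minus strand), was at 111, 3.01 and 0.0746 CPM in the primary tumors, and the liver libraries had 0, 0 and 1 read. Cyp11b2, the aldosterone synthase next to it, had 119, 3 and 0 reads in primary 1, 2 and 3 and no read in liver. These 3 genes were therefore high in primary 1 alone. Cyp21a1, the 21-hydroxylase (ENSMUSG00000024365.9, chr17:34801348-34804561, minus strand), was at 139, 20.2 and 20.4 CPM in the primary and 3.61, 3.31 and 2.56 CPM in the liver tumors, so that primary 1 was highest but the other primary tumors were also above the liver. Cyp17a1, which in mice is made in the gonads and to some extent in the liver and hardly in the adult adrenal cortex, had 1, 0 and 0 reads in the primary tumors and 5.06, 2.90 and 1.76 CPM in liver 1, 2 and 3 (log2 change 7.97, SE 0.84, edgeR adjusted p = 0.000327).

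By the rule set for these genes, at least 5 times the next primary library and at least 10 reads, 4 of the 5 were high in only 1 primary library, each time primary 1. The ratios to the next primary library were 36.9 for Cyp11b1, 34.8 for Cyp11a1, 28.2 for Cyp11b2 and 6.82 for Cyp21a1, so Cyp21a1 lay just inside the threshold and did not meet one of 10 times. Among all 16487 genes tested, 0.309% met the rule in primary 1, and among all 52459 genes listed 0.397% did. Cyp11b1 and Cyp11b2 are among the genes listed but not among those tested. The steroid members took 53.0% of the P450 reads of primary 1, 2.65% of those of primary 2 and 5.54% of those of primary 3.

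Cyp11a1 was called lower in the liver tumors (log2 change -7.67, SE 2.06, edgeR adjusted p = 0.0313), and Cyp21a1 likewise (log2 change -4.25, SE 0.81, edgeR adjusted p = 0.00745). Without primary 1 the change of Cyp11a1 was -3.26 (adjusted p = 0.0258) and that of Cyp21a1 was -2.69 (adjusted p = 0.000433). The call of Cyp11a1 was lost when liver 1, 2 or 3 was left out (adjusted p = 0.116, 0.131 and 0.0964), in limma-voom (0.198) and without a filter (0.202), and DESeq2 gave it no adjusted p. Cyp21a1 was called whichever library was left out and lost its call without a filter (0.0898). Cyp11b1 and Cyp11b2 were not tested, because they passed the filter in too few libraries. Without primary 3 Cyp11b1 was tested and called lower (log2 change -11.84, edgeR adjusted p = 0.00519), and without liver 1, 2 or 3 it was tested and not called (adjusted p = 0.116, 0.127 and 0.124). Cyp21a1 shares 23.7% of its 50-base words with the pseudogene Cyp21a2-ps, which ran the other way, at 4.52, 0.381 and 0.547 CPM in the primary and 16.4, 6.52 and 5.48 CPM in the liver tumors (not called), and it overlaps Tnxa. Whether the counting used strand is not given in the sources used here, so reads of overlapping genes cannot be told apart, also for Cyp11a1 with Gm17322 and Cyp11b1 with Gml2.

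Some of the 13 partner genes of these enzymes were also highest in primary 1, and the list summed to 775, 277 and 69.9 CPM in primary 1, 2 and 3 and to 336, 303 and 209 CPM in liver 1, 2 and 3. Star, which carries cholesterol into mitochondria, had 12965, 170 and 101 reads in primary 1, 2 and 3, Hsd3b1, the next enzyme of the pathway, 8681, 113 and 5, Nr5a1, the transcription factor of steroidogenic cells, 352, 4 and 6, and Mc2r, the corticotropin receptor, 273, 4 and 0. The 9 adrenal medulla genes all had reads in primary 1 and summed to 241, 81.5 and 22.6 CPM in primary 1, 2 and 3 and 39.7 to 74.7 CPM in liver. Of these genes 7 were highest in primary 1, while Ddc (645, 1938 and 797 reads) and Slc18a1 (106, 284 and 49 reads) were highest in primary 2. The chromogranins Chga and Chgb had 3125, 64 and 39 and 4196, 29 and 18 reads, and the catecholamine enzymes Th, Dbh and Pnmt had 690, 623 and 352 reads in primary 1 and at most 20 in the other primary libraries. In the liver libraries Dbh, Pnmt and Mc2r had no read. Star, Hsd3b1, Nr5a1 and Mc2r, picked from the 13 partner genes, and 7 of the 9 medulla genes were thus highest in primary 1, as Cyp11a1, Cyp11b1 and Cyp11b2 were. The other partner genes were not all highest there, and the part of these genes in the difference between the sites was not tested. Of the 13 steroid partner genes 7 were tested: Mrap and Scarb1 rose, Fdx1, the electron donor of the mitochondrial P450s, was at 44.2, 33.2 and 19.8 CPM in the primary and 125, 72.4 and 44.1 CPM in the liver tumors and was not called, Akr1b7 fell (a call lost without any 1 liver library, adjusted p = 0.0552 to 0.0762), and Star was not called (log2 change -5.19, SE 1.70, edgeR adjusted p = 0.0610).

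**Figure D3:**
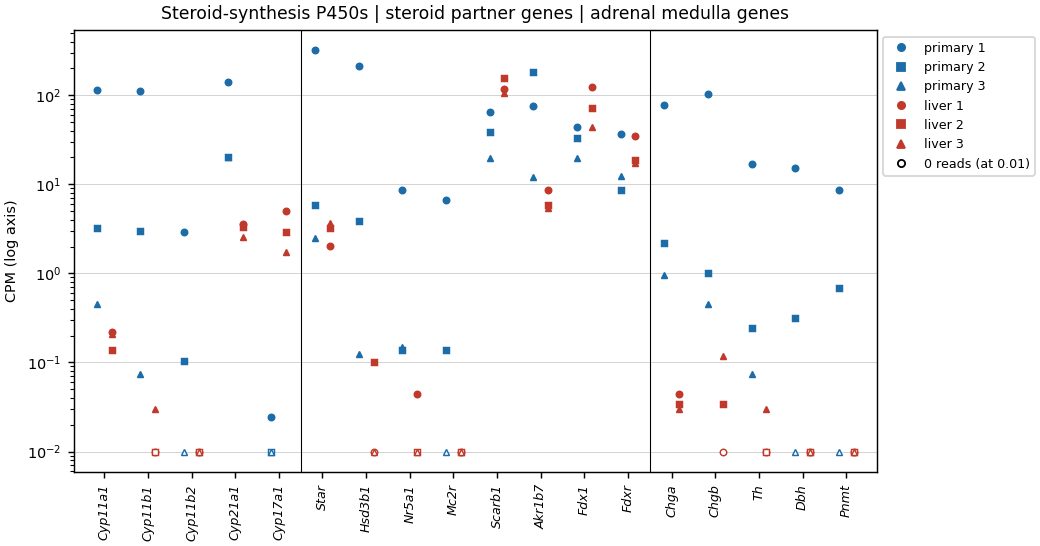
CPM in each bulk library, on a log axis, of the 5 steroid-synthesis members, 8 partner genes and 5 adrenal medulla genes; open symbols at 0.01 mark 0 reads. Primary 1 lies above all other libraries for Cyp11a1, Cyp11b1, Cyp11b2 and Cyp21a1 and for Star, Hsd3b1, Nr5a1, Mc2r and the medulla genes shown, and below the liver libraries for Cyp17a1.

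Of the 5 members of vitamin D and retinoid metabolism, 3 were tested, Cyp2r1 and Cyp26a1 were called higher and Cyp26b1 was not called. Cyp2r1, the main hepatic 25-hydroxylase of vitamin D, was at 0.148, 0.0346 and 0.149 CPM in the primary and 15.1, 24.4 and 11.6 CPM in the liver tumors (log2 change 7.15, SE 0.53, edgeR adjusted p = 4.05e-05). Cyp27b1 and Cyp24a1, which activate and inactivate the hormone in the kidney, stayed under 0.65 CPM in all libraries. Cyp26b1, which breaks down retinoic acid outside the liver, was at 6.66, 24.4 and 14.95 CPM in the primary and 3.83, 5.77 and 10.6 CPM in the liver tumors, and the groups overlapped (log2 change -1.18, SE 0.52, edgeR adjusted p = 0.142). It was called lower without primary 1 (log2 change -1.54, edgeR adjusted p = 0.0406) and with plain totals (-1.54, adjusted p = 0.0442).

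Cyp26a1, the inducible retinoic acid hydroxylase, was at 0.492, 0.277 and 0.870 CPM in primary 1, 2 and 3 and at 54.6, 2.15 and 2.38 CPM in liver 1, 2 and 3. Every liver library was above every primary library, but liver 1 was 25.4 times the lowest liver library. The log2 change was 5.13 (SE 1.37, edgeR adjusted p = 0.0305), and without liver 1 it was 1.998 (adjusted p = 0.0557). The call was also lost without primary 1, 2 or 3 (0.0637, 0.0887 and 0.0676), in limma-voom (0.105), both FPKM fits (0.0758 and 0.165), without a filter (0.196) and with the replicate block (0.0679), and DESeq2 gave no adjusted p. The Cyp26a1 promoter is shown because its known regulation by retinoic acid receptors runs through a direct repeat of TGAACT with 5 bases between the copies. Matches of this repeat (TGAACT, any 5 bases, TGAACT), searched on both strands, stood in 8 of the 32851 promoters (0.0244%) and among members only here, beginning 32 bases before the start (match in capitals, RefSeq, GRCm38.p6, plus strand):
Cyp26a1, chr19:37697558-37697857 (+): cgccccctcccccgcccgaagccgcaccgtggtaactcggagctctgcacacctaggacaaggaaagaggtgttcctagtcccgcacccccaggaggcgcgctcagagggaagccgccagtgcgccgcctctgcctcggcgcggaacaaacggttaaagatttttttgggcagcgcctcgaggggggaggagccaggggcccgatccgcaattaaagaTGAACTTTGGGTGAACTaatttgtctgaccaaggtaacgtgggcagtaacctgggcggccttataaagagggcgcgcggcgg

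Cyp20a1, an orphan P450 without a settled substrate, was at 21.8, 27.3 and 18.2 FPKM in primary 1, 2 and 3 and was the highest member in primary 3. It was at 49.99, 62.5 and 42.6 CPM in the primary and 34.8, 35.8 and 43.1 CPM in the liver tumors, the groups overlapped, and it was not called (log2 change -0.45, SE 0.20, edgeR adjusted p = 0.147). Cyp51, the lanosterol demethylase of cholesterol synthesis, is a P450 whose symbol falls outside the rule. It stood at 710, 693 and 1034 CPM in the primary and 1006, 816 and 905 CPM in the liver tumors and was not called (log2 change 0.16, SE 0.26, and -0.30 with plain totals). Without TMM factors Cyp20a1, Cyp26b1, Cyp4f16 and Cyp4f40 were also called lower, a scaling that moved the median change of all genes by -0.45.

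Among the liver tumors, liver 3 was the lowest library for most abundant members. It was highest for 9 of 78 members with a liver read, a count not taken over all genes. Its hepatocyte markers were also lowest, at 64240 CPM beside 123700 and 117400 in liver 1 and 2. Set per 1000 CPM of the hepatocyte markers, Cyp2e1 came to 33.7, 42.3 and 44.4 and Cyp3a11 to 37.4, 43.9 and 29.8 in liver 1, 2 and 3. On this scale 61 members could be compared, the highest over the lowest liver library had a median of 1.48 times, 47 members were under 2 times, and 21, 18 and 22 members were highest in liver 1, 2 and 3. On this scale the highest over the lowest library was 24.1 times for Cyp26a1, beside 25.4 in CPM, and 4.72 times for Cyp2c69, beside 6.14. For Cyp26b1 (5.32 times), Cyp4a14 (3.11) and Cyp1b1 (2.94), all highest in liver 3 per hepatocyte marker, the ratio was larger than in CPM (2.76, 2.56 and 1.53). In CPM the members of at least 1 CPM that varied most were Cyp26a1, Cyp2c69 at 2.38, 0.478 and 0.387 CPM and Cyp2u1, a long-chain fatty acid hydroxylase, at 32.4, 13.7 and 6.61 CPM in liver 1, 2 and 3. Cyp7b1 was close behind. Liver 1 was highest for all of these 4. With 3 libraries these orders were not tested.

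**Figure D4:**
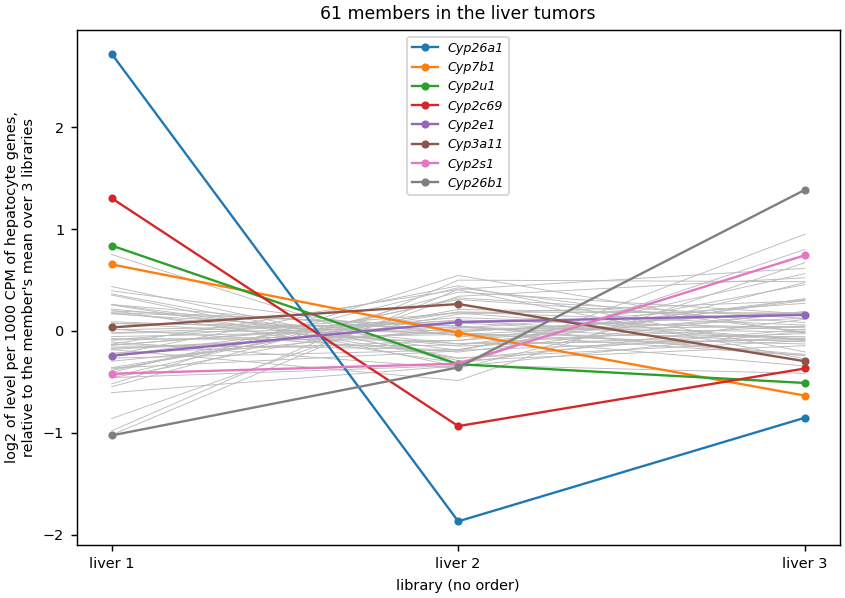
Level of 61 members per 1000 CPM of hepatocyte markers in liver 1, 2 and 3, as log2 relative to the member's own mean over these libraries; grey lines are members without a label. Most lines stay within 1 on this scale, and Cyp26a1 stands far above its mean in liver 1.

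Genes that act with the P450s were read from lists of known partners. Of all genes tested, 16.7% were called higher in the liver tumors and the median log2 change was -0.07. The counts of these lists describe the genes and do not test them. Of 12 redox partner and heme supply genes, all tested, 5 rose and the list had a median log2 change of 0.74. Pgrmc1, a heme-binding partner of P450s, rose by 3.25 (SE 0.33, edgeR adjusted p = 0.000256), Alas1, the first enzyme of heme synthesis, by 2.95, and Cyb5a, which donates electrons to several P450s, rose too (edgeR adjusted p = 0.0226). Por, the reductase that serves all microsomal P450s, was at 109, 321 and 114 CPM in the primary and 361, 279 and 220 CPM in the liver tumors. Primary 2 overlapped with the liver group and Por was not called (log2 change 0.66, SE 0.44).

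Of 15 tested regulators of P450 genes, 10 rose, with a median of 2.52, where 16.7% of all genes tested were called higher. Nr1i3 (CAR) was at 0.0246, 0.173 and 0.199 CPM in the primary and 219, 138 and 79.4 CPM in the liver tumors (log2 change 10.10, SE 0.66, edgeR adjusted p = 2.13e-05). Nr1i2 (PXR), the other xenobiotic sensor, was at 5.98, 39.0 and 11.2 CPM in the primary and 58.1, 55.8 and 35.6 CPM in the liver tumors, overlapped through primary 2 and was not called (adjusted p = 0.136). Hnf4a was high at both sites, at 265, 337 and 216 CPM in the primary and 505, 790 and 492 CPM in the liver tumors (log2 change 1.13, SE 0.28, edgeR adjusted p = 0.0242), a call lost without primary 1, primary 3 or liver 2 (adjusted p = 0.0667, 0.0904 and 0.103). Ahr, the sensor of dioxins, was at 73.2, 51.6 and 77.4 CPM in the primary and 57.0, 102 and 108 CPM in the liver tumors and was not called (log2 change 0.40, and -0.05 with plain totals). Of 23 conjugating and other phase I or II enzymes, 19 rose, with a median of 5.09, among them the carboxylesterase Ces1c (13.91) and the sulfotransferase Sult2a8 (12.94). Ephx2 and Ugt2b34 were among the 4 not called, and both were highest among primary libraries in primary 2 (196 and 358 CPM).

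In the single-cell libraries a called cell had at least 1500 UMIs (molecules counted once) and at most 10% mitochondrial UMIs, which left 2282 primary and 7618 liver cells with medians of 12022 and 6750 UMIs. The mitochondrial limit removed 5208 of 7490 and 4887 of 12505 barcodes, and 8 called barcodes were shared by both libraries. Although the sort was for CD45+, 76 primary and 1748 liver cells fell in epithelial tumor cell-like clusters. Another 435 primary and 2928 liver cells lay in clusters that took no class. Class values therefore cover the named clusters only, and a class may not hold all cells of its type. Of the 79 members 78 were found by symbol (Cyp2c44 was not), 34 had a UMI in primary cells, 57 in liver cells and 14 at least 20 UMIs in both. All members together came to 443 CPM of UMIs in primary cells (exact 95% Poisson interval 435.5 to 450.3) and 301 in liver cells (297.1 to 305.3). Barcodes taken as free RNA, from 100 to under 500 UMIs in the primary and from 500 to under 1000 in the liver library, held 230 and 291 CPM. These ranges were chosen after seeing the data, and whether the barcodes hold free RNA or damaged cells was not tested. Below, free RNA names these barcodes only and is not a measured background. In the liver library Epcam stood at 105 CPM in them and at 49.0 CPM in called cells. With 1 library a site there is no test, intervals cover counting error only, and clusters were made with these genes, so the class values are descriptions.

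Cyp4f18, which hydroxylates leukotriene B4 in mouse leukocytes, made up most of the P450 UMIs, with 8744 UMIs in primary and 10661 in liver cells (278 and 154 CPM). In the primary library it was at 390 CPM in monocyte or macrophage-like, 399 in neutrophil-like, 50.1 in dendritic cell-like and 3.45 in epithelial tumor cell-like cells. In the liver library the same classes stood at 325, 318, 36.99 and 12.2 CPM. Free RNA held it at 129 CPM in the primary and 66.0 CPM in the liver library, so the dendritic cell-like and epithelial tumor cell-like values lie below it. The macrophage-like class is not compared between the libraries, because different clusters hold it (mostly clusters 1 and 7 in primary, 3 and 4 in liver) and cluster 1 has a neutrophil marker among its 10 leading genes and none of its own list. After thinning each cell to 1500 UMIs, 41.8% of primary macrophage-like and 36.5% of neutrophil-like cells had a Cyp4f18 UMI, and 1.32% of epithelial tumor cell-like cells. Unthinned these shares were 91.2, 50.9 and 10.5% at medians of 13907, 2726 and 18507 UMIs.

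Cyp26b1 was concentrated in dendritic cell-like cells, at 288 CPM (exact 95% interval 263.5 to 314.9) in the primary and 91.1 CPM (73.76 to 111.2) in the liver library, beside free RNA of 5.73 and 1.69 CPM. It was among the 10 leading genes of cluster 16, which was led by Xcr1 and also by Clec9a, markers of cross-presenting dendritic cells, and 78.0% of its primary UMIs lay in cells with an Xcr1 UMI. Epithelial tumor cell-like cells of the primary library held it at 36.2 CPM. Cyp27a1 was also highest in dendritic cell-like cells, at 55.3 and 42.7 CPM, beside 16.8 and 4.37 CPM of free RNA. Within the primary library, macrophage-like cells held Cyp4v3 at 32.1 CPM and Cyp4f16 at 28.4 CPM, beside 5.17 and 9.91 CPM in epithelial tumor cell-like cells and 8.78 and 12.6 CPM of free RNA.

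Of the steroid-synthesis members, Cyp11b1, Cyp11b2 and Cyp17a1 had at most 1 UMI in the sorted cells of either library. Cyp11a1 had 9 UMIs in 2 primary cells and 49 UMIs in 15 liver cells, and 8 and 44 of these UMIs lay in the 13 cells of cluster 24, a mast cell or basophil-like cluster that it led together with Mcpt8, a basophil protease, and Gata2. The primary UMIs fell from 9 to 1 at the higher minimum of UMIs a cell that was tried and to 0 at a limit of 5% mitochondrial UMIs. In the 12 liver cells of this cluster it was at 1239 CPM (900.3 to 1663), 11 of 12 had a UMI, and 1 of 1748 epithelial tumor cell-like cells did. Cyp4f18 was at 873 CPM in the same 12 cells. In bulk, the 6 mast cell or basophil markers summed to 41.14, 7.24 and 21.6 CPM in primary 1, 2 and 3 and to 17.2 to 19.7 CPM in the liver libraries, highest in primary 1 as Cyp11a1 was, while Mcpt8 had 25, 17 and 45 reads in primary 1, 2 and 3. None of the 6 was at 0 reads in any library, and the part of these cells in the bulk Cyp11a1 values was not tested.

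**Figure D5:**
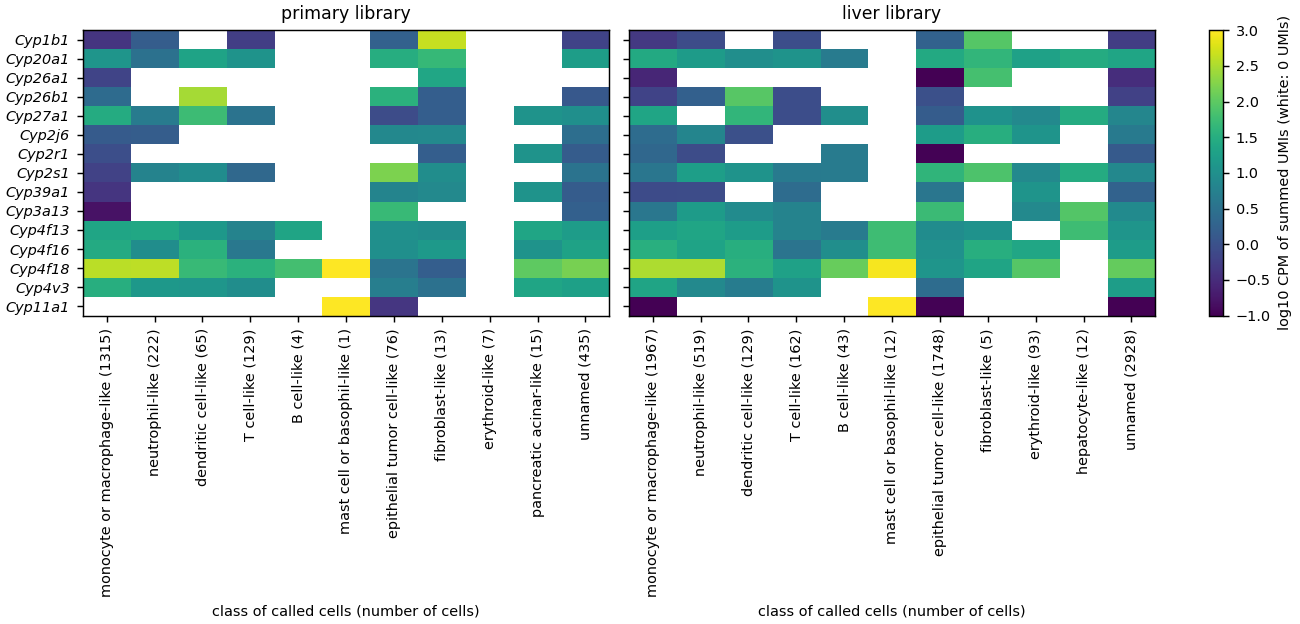
Log10 CPM of summed UMIs of the 14 members with at least 20 UMIs in both single-cell libraries, and of Cyp11a1, by class of called cells (number of cells in brackets); white is 0 UMIs. Cyp4f18 is high in the myeloid classes, Cyp26b1 in dendritic cell-like, Cyp1b1 in fibroblast-like, Cyp2s1 and Cyp3a13 in epithelial tumor cell-like and Cyp11a1 in mast cell or basophil-like cells.

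Members of non-leukocyte cells were also seen. Cyp2s1 was at 164 CPM in the 76 primary and 40.8 CPM in the 1748 liver epithelial tumor cell-like cells, which held 87.0 and 71.8% of its UMIs, and Cyp3a13 was at 50.4 and 53.3 CPM there. Different clusters hold this class: 60 of the primary cells lay in cluster 10, beside 363 of the liver cells, of which 919 lay in cluster 2 and 466 in cluster 8, and Cyp2s1 was at 82.6 CPM in cluster 10 and 15.1 CPM in cluster 8 over both libraries. In liver macrophage-like cells both were below their level in the barcodes taken as free RNA, Cyp2s1 at 3.74 CPM beside 35.8 and Cyp3a13 at 3.83 beside 43.6. Epcam was also higher in those barcodes than in called cells, so they may not give a background level for epithelial genes. Cluster 0 held Cyp2s1 at 18.1 CPM and Cyp3a13 at 23.1 CPM over both libraries. In it 6 markers of a class list were over 2-fold. Its class was withheld for low UMIs a cell (median 2213.5) and no marker of that list among its leading genes. The shares of UMIs above therefore cover the named clusters only. Cyp1b1 was at 444 CPM in 13 fibroblast-like cells of the primary library and 87.3 CPM in 5 of the liver library, where 1 cell held its 8 UMIs. Hepatocyte members had few UMIs in sorted cells: Cyp2e1 had 1 UMI in primary and 53 in liver cells (0.768 CPM beside 3.31 CPM of free RNA), and Cyp3a11 had 0 and 51. In 12 hepatocyte-like cells of the liver library Cyp2e1 was at 315 CPM (157.4 to 564.3), from 11 UMIs in 4 cells.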

How the data were processed

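Bulk read counts per gene were deposited by the authors as whole numbers and were used for all tests. The FPKM values deposited by the authors were used to compare levels between genes. UMI counts of 2 single-cell libraries were deposited by the authors as matrices of 6794880 barcodes each, per the file headers. bcl2fastq, Cell Ranger and mm10 are named per the submitters' processing notes, and the bulk aligner and counter are not given in the sources used here. Positions came from GENCODE (GRCm38), matched by symbol.

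Members, roles and gene lists were chosen with earlier results of these data known. Counts were tested with edgeR 4.0.16 (R 4.3.3): TMM factors, filterByExpr, robust quasi-likelihood fit on group, two-sided, Benjamini-Hochberg over 16487 genes, threshold 0.05. CPM use TMM-scaled totals for all genes. The SE of an edgeR change was worked back as the absolute log2 change over the square root of its F statistic. The fit was tested on simulated data. Alternatives used DESeq2 1.42.0, limma 3.58.1 on log2(FPKM + 1) and log2(FPKM + 0.1), other factors and filters, a replicate block, and each library left out.

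Genes named were the 4 highest per role by FPKM, all steroid-synthesis members, members called lower, the 3 most variable in liver, those with 20 UMIs in both single-cell libraries, 3 called genes and at least 1 other per list, and a fixed set. Other members are named after their values were seen. Single cells were clustered with scanpy 1.11.5 and leidenalg 0.10.2 at resolution 1, and clusters took a class from marker lists. A class was withheld where UMIs a cell were low and no marker of its list was among the leading genes. Scrublet marked 2 and 1 barcodes, so it did not work and none was removed. The free-RNA barcodes first planned (10 to 100 UMIs) held Alb at 545 CPM in the primary library, where called cells had 1 Alb UMI, and were replaced after seeing the data.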

Additional observations from a re-analysis of the deposited data

How the results depend on the processing

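The count of members called higher (51) stayed between 45 and 54 over all 15 alternatives, and between 48 and 54 when a library was left out. The count called lower (3) was 7 with plain library totals, 0 in edgeR without a filter on low counts, where 7 members had an unadjusted p under 0.05, while DESeq2 called 2, 1 in limma-voom and 1 on either FPKM scale, and 1 to 4 when a library was left out. It was 1 without each of the liver libraries. Plain totals also turned the log2 change of Cyp4f18 to -0.10, of Ahr to -0.0509 and of Cyp51 to -0.30, none of them called either way. With the replicate block 51 members were higher and 2 lower: Cyp26a1 and Cyp2s1 lost their call and Cyp3a13 gained one. Libraries of the same number correlated at -0.179, 0.248 and 0.0932 in their deviations, so the numbers were not taken as pairs. Leaving out 1 library moved calls of Cyp2s1, Cyp11a1, Cyp26a1, Cyp2c65, Cyp3a13, Cyp4f13 and Cyp4f17 among others. In single cells, the P450 level of the liver library was 280.5 CPM at a limit of 5% mitochondrial UMIs and 319.0 at 20%, and that of the primary library 451.0 at 20%. Other limits on UMIs and the removal of the 6% highest scrublet scores, the latter chosen after seeing the data, moved these family levels by less than their intervals. Single members moved more: Cyp2s1 in the liver library went from 15.7 CPM to 9.68 at 5% and 23.8 at 20% mitochondrial UMIs, and at 5% Cyp1b1 in the primary library went from 9.68 to 17.6 CPM, Cyp26a1 from 0.891 to 1.60 and Cyp7b1 from 1.88 to 3.46. The cause of these moves was not tested. Of the 16 members not tested, 14 had fewer than 100 reads in all, so depth limits what is said of them.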

Other observations

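Several symbols outside the members carried P450 reads. Cyp4a12a and Cyp4a12b, male-biased fatty acid hydroxylases, had 0, 0 and 0.124 CPM and 0, 0.0346 and 0 CPM in primary 1, 2 and 3, and stood at 195, 230 and 79.9 and at 44.5, 51.8 and 17.6 CPM in liver 1, 2 and 3. Both rose (log2 changes 11.74, SE 0.83, and 11.51, SE 0.80, with edgeR adjusted p = 3.3e-05 and 2.89e-05). The pseudogene Cyp2d37-ps was at 53.3, 27.1 and 18.5 CPM in liver 1, 2 and 3 and rose by a log2 change of 5.98 (SE 0.81). Cyp19a1, the aromatase of estrogen synthesis, had 1 read in the primary and 4 in the liver libraries and so fell under the minimum of 10 reads.

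In the sorted cells Cyp7b1, a member of bile acid synthesis, lay mainly in fibroblast-like cells of the primary library, with 57 of its 59 UMIs in 8 of these 13 cells (88.3 CPM, exact 95% interval 66.84 to 114.3). In the liver library 8 of its 15 UMIs lay in dendritic cell-like cells and 4 in 5 fibroblast-like cells, and the 12 hepatocyte-like cells had none.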
